A study of Mus musculus with 4 samples.

Results

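The effect of an LLC cancer on gene expression was examined in lungs that had also received S100A8, by comparing S100A8 + LLC with S100A8 + vehicle. These are 2 of the 4 samples of the series, and the comparison covered all 98 genes of an in-house RT-qPCR panel together with 2 housekeeping assays. Female C57BL/6J mice aged 6 to 8 weeks were injected in the lung with LLC cells or with vehicle (buffer), each mixed with Matrigel, a basement membrane gel. Mice of both groups compared here received 10 µg recombinant mouse S100A8 intranasally on Days 3, 6 and 9, and whole lungs were harvested on Day 10. HBSS + LLC and HBSS + vehicle, which received the salt solution HBSS in place of S100A8, are used below only to show where the LLC effect differed without S100A8. LLC is a Lewis lung carcinoma line derived from a C57BL mouse, so that RNA of host and cancer cells cannot be told apart. In whole lung, fewer cells of a type and less RNA per cell cannot be told apart either.

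S100A8 is a small calcium-binding protein of neutrophils and other myeloid cells that pairs with S100A9 and can scavenge oxidants. The panel covers the processes through which inflammation and growing cancers act on each other, namely cytokines and chemokines that recruit leukocytes, enzymes that handle reactive oxygen species, factors of the hypoxia response, and adhesion and matrix genes. The RT-qPCR assays report mRNA of the lung, so that the values for *S100A8* are those of the endogenous gene and not of the protein given.

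RT-qPCR reports a threshold cycle (Ct), the cycle at which a product becomes detectable, and each cycle earlier corresponds to about 2-fold more template. Ct values were averaged by the authors over 4 to 5 mice, and 1 value per gene and group was deposited. Consequently no SD, n or test could be given, and whether a difference exceeds the spread between mice cannot be told from the deposited values. Values below are log2 differences, S100A8 + LLC minus S100A8 + vehicle, of Ct minus the mean Ct of both housekeeping assays with the sign turned, so that positive values are higher with LLC. Genes more than 2-fold different were counted. The first housekeeping assay had a Ct of 16.17 in S100A8 + vehicle and 15.82 in S100A8 + LLC, and the second had a Ct of 23.3 and 22.75. Both were thus earlier with LLC, by 0.35 and 0.55 cycles, and using either alone moved every gene by 0.10. Without S100A8, these assays moved in opposite directions, by 1.26 and -1.94 cycles.

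In lungs given S100A8, LLC cancers were accompanied by higher mRNA of 12 genes and lower mRNA of 29 genes. The higher genes included *TXN* and *SOD1*, which encode the antioxidant enzymes thioredoxin and superoxide dismutase, *IL-17β*, and 3 of the 4 subunits of the hypoxia-inducible factors. The lower genes included 6 of 12 chemokines, *IL-13*, *TNF-α* and *S100A9*, and both assays for the receptor RAGE. The higher genes made up 12.2% of the panel and the lower genes 29.6%, and 57 genes were not past 2-fold. Differences among the higher genes reached 2288-fold, and 6 exceeded 4-fold. Their median was at least 4.35-fold, since 3 of the 12 values are lower bounds. Those among the lower genes were smaller, from 2.07-fold to 4.47-fold with a median of 2.69-fold, and 1 exceeded 4-fold. Over all 98 genes the median log2 difference was -0.435, with 37 genes above 0 and 60 below. The closest genes below the threshold were *SIRT1* at 0.97 and *p53* at -0.94, against *HIF-1α* at 1.15 and *CXCL-12* at -1.05 just past it (*HIF-3α*, at 1.14 or more, is a lower bound).

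This split depended on the housekeeping assays. The median of the 98 changes in unnormalized Ct was only -0.015 cycles, whereas the mean of both housekeeping assays differed by -0.45. The median Ct of the panel itself was 24.815 in S100A8 + vehicle and 24.195 in S100A8 + LLC. Without any reference, at an equal 1.5 µg of reverse-transcribed RNA, 22 genes were more than 1 cycle earlier and 12 more than 1 cycle later with LLC, so that higher genes made up 64.7% of those past the threshold in place of 29.3%. All 12 higher genes remained past the threshold without a reference, but only 12 of the 29 lower genes did, namely *IL-13*, *S100A9*, *CXCL-2*, *GM-CSF*, *AGER*, *TNF-α*, *MMP-9*, *CXCL-1*, *TIMP2*, *CXCL-10*, *CDH13* and *KIT*. These 12 were lower under all 5 references tried (both housekeeping assays, each alone, the panel median and none). Among the higher genes, 10 were counted as higher under all of them. Against the panel median the exceptions were *HIF-1α* at 0.98 and *HIF-3α* at 0.97 or more. This lower bound leaves unsettled whether *HIF-3α* was past 2-fold.

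**Figure D1:**
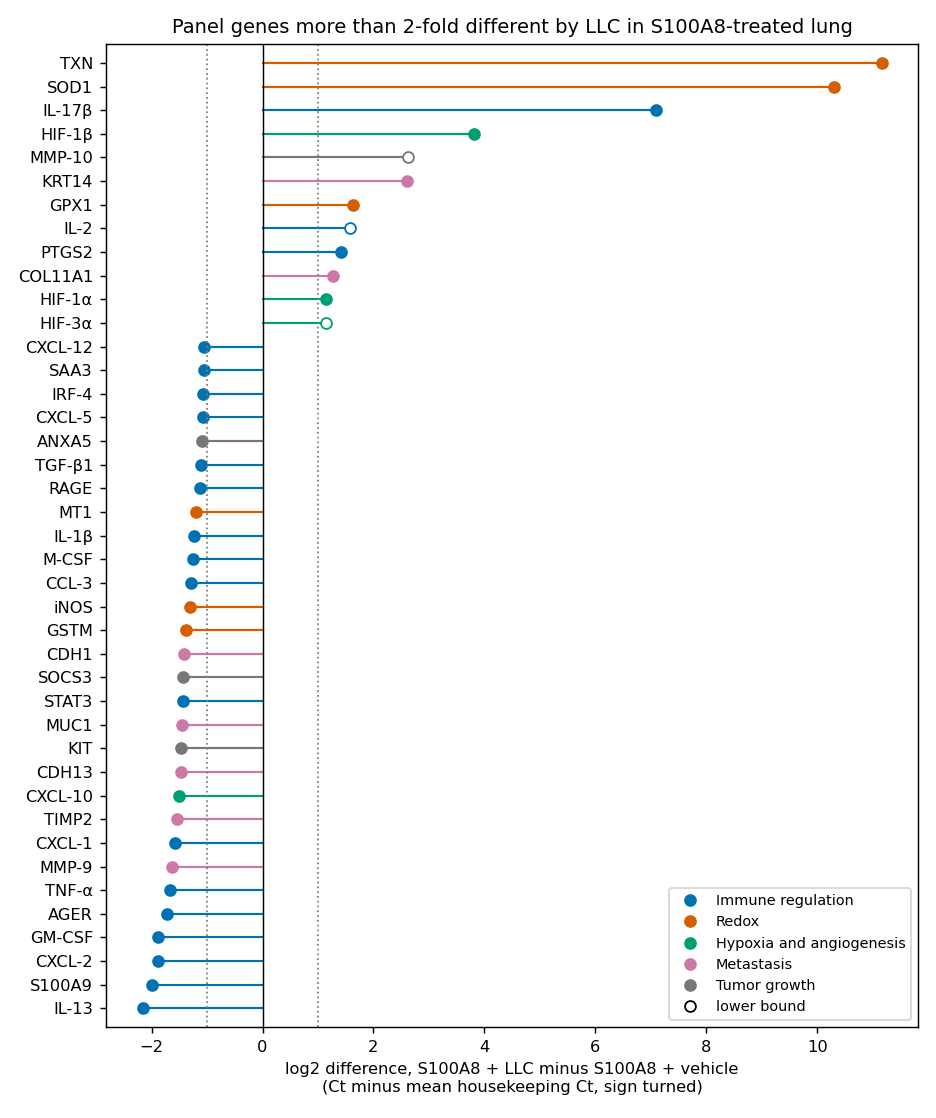
Log2 difference (S100A8 + LLC minus S100A8 + vehicle, housekeeping-normalized Ct with the sign turned) of the 41 genes past 2-fold, coloured by panel group, with open circles for lower bounds and dotted lines at 2-fold. The 12 higher genes spread up to 11.16, whereas the 29 lower genes lie between -2.16 and -1.05.

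The largest differences were found for *TXN* and *SOD1*. *TXN* encodes thioredoxin, which reduces disulfides in other proteins. Its Ct was 32.72 in S100A8 + vehicle and 21.11 in S100A8 + LLC, against 37.41 in HBSS + vehicle and 20.92 in HBSS + LLC. *TXN* was therefore late in both groups without LLC and early in both groups with LLC. Between the S100A8-treated groups the log2 difference was 11.16, or 2288-fold.

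*SOD1* encodes the cytosolic copper-zinc enzyme that turns superoxide into hydrogen peroxide. Its Ct was 30.55 in S100A8 + vehicle and 19.79 in S100A8 + LLC, against 38, the cut off, in HBSS + vehicle and 21.81 in HBSS + LLC. S100A8 + LLC was thus the earliest of the 4 groups. The log2 difference with LLC was 10.31, or 1269-fold. Normalized levels of *TXN* and *SOD1* in S100A8 + LLC lay 1.83 and 0.51 cycles after the housekeeping mean, against 12.99 and 10.82 in S100A8 + vehicle. Because only means of several mice were deposited, whether these high Ct values were shared by all mice of a group cannot be told. The panel holds no other assay of either gene to check them. These folds therefore describe the deposited Ct values, and whether lung mRNA differed to this extent was not tested.

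Promoters of these 2 genes are shown because their mRNAs differed most, with log2 differences above 10, from 250 bases before the annotated start to 50 after it, in RefSeq's annotation of the mouse build GRCm38.p6. *TXN* (Txn1) is on the minus strand at chr4:57956362-57956661, and the capitals mark GCGTG, a core of the hypoxia response element bound by hypoxia-inducible factors, 22 bases before the start. *SOD1* (Sod1) is on the plus strand at chr16:90220512-90220811, and the capitals mark a reverse-strand match to TGACNNNGC, a core of the antioxidant response element, 56 bases before the start, which also overlaps a GCGTG. Other GCGTG matches on either strand of the Sod1 window are not marked.
Txn1: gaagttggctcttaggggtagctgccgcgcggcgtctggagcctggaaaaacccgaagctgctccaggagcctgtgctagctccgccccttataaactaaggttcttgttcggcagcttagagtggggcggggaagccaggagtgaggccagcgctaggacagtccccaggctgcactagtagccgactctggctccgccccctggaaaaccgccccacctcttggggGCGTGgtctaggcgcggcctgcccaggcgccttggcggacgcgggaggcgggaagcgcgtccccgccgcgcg
Sod1: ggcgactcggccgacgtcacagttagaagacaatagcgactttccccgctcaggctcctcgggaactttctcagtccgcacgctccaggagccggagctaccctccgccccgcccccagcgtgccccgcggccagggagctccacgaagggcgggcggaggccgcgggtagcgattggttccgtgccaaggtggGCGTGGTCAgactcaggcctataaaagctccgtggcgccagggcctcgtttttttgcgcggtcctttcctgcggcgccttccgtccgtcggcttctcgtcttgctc

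Letters matching TGACNNNGC on either strand were found in 2 promoters of the 11 higher genes for which one was given (*SOD1* and *HIF-1β*), in 17 of 75 promoters of the panel (22.7%) and in 4071 of 32851 promoters in the annotation table (12.4%). ACGTG or GCGTG was found in 8 of the 11, in 35 of the 75 (46.7%) and in 14380 of the 32851 (43.8%). Among 7 promoters of the antioxidant genes, 3 held letters matching TGACNNNGC (42.9%) and 5 held ACGTG or GCGTG (71.4%). Such matches describe the letters of these windows and are not evidence of binding.

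Antioxidant genes as a list did not share 1 direction. Of 9 antioxidant genes, 3 were higher, 2 were lower and 4 were not past 2-fold, and their median was -0.12. The panel had 12.2% higher, 29.6% lower and a median of -0.435, and a count over 9 genes is not set apart from these shares. *GPX1*, glutathione peroxidase, had a Ct of 26.28 in S100A8 + vehicle and 24.19 in S100A8 + LLC and was 3.12-fold higher. *GSTM*, a glutathione S-transferase, was 2.60-fold lower (Ct 22.61 and 23.54), and the metallothionein *MT1*, a metal-binding protein, was 2.30-fold lower (25.34 and 26.09). The second metallothionein, *MT2*, differed by -0.12 only. *PRDX1* (peroxiredoxin), *CAT* (catalase) and *HO-1* (heme oxygenase) had values of 0.30, -0.65 and -0.56.

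Among 5 genes of arginine and tryptophan metabolism, with a median of -0.27, only *iNOS*, which makes nitric oxide from arginine, was past 2-fold, at 2.46-fold lower (Ct 27.27 and 28.12). *ARG1* and *ARG2*, arginases that compete for the same substrate, had values of -0.83 and -0.03. The tryptophan-degrading *IDO* was at -0.27, and *CAT2*, an arginine transporter, at 0.61.

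Hypoxia-inducible factors consist of an oxygen-labile α subunit and the constant partner HIF-1β, and activate genes of glycolysis and vessel growth. *HIF-1β* had a Ct of 37.41 in S100A8 + vehicle and 33.15 in S100A8 + LLC, a log2 difference of 3.81. *HIF-1α* was 2.22-fold higher (36.35 and 34.75), and *HIF-3α* was at least 2.20-fold higher, from the 38-cycle cut off to 36.41. *HIF-2α* was not past 2-fold, at 0.39 (34.23 and 33.39). All 4 subunits were thus above 0, with a median of at least 1.145, since the *HIF-3α* value is a lower bound. However, each had a Ct above 30 in both groups. A late Ct can reflect few molecules or the assay itself, which cannot be told apart here. With Ct values capped at 35, the difference of *HIF-1β* became 1.40 and that of *HIF-1α* became -0.20. For *HIF-1α* the cap cut 36.35 to 35, beside 34.75 with LLC, so that its sign there does not show a direction. The median of the list became 0.39 with this cap and also at a Ct limit of 35 in both groups, which left only *HIF-2α*. *VEGFα*, an angiogenic growth factor and a target of these factors, had a value of -0.66 (20.29 and 20.5), and the 9 hypoxia and angiogenesis genes as a panel group had a median of 0.39. This median became -0.66 and -0.45 among genes with a Ct of at most 30 and 35 in both groups, and -0.22 with the cap at 35.

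Of 18 cytokines, 2 were higher, 6 were lower and 10 were not past 2-fold, and the median was -0.61 against -0.435 over the panel. These counts are close to the shares of the whole panel, 12.2% higher and 29.6% lower. *IL-17β*, a member of the interleukin-17 family, stood apart from the rest. Its Ct was 35.78 in S100A8 + vehicle and 28.23 in S100A8 + LLC, against 30.38 in HBSS + vehicle and 27.16 in HBSS + LLC, and it was 137-fold higher with LLC in S100A8-treated lungs. With Ct values capped at 35, its log2 difference of 7.10 became 6.32. S100A8 + vehicle was thus the latest of the 4 groups, and both LLC groups were earlier than both vehicle groups. *IL-2*, the T cell growth factor, was at least 2.99-fold higher, from 38 to 35.97.

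Among the lower cytokines, *IL-13*, a type 2 cytokine that drives mucus production and alternative macrophage activation, had the lowest value of the panel at 4.47-fold lower (30.73 and 32.44). *GM-CSF*, a growth factor of granulocytes and macrophages, was 3.68-fold lower (24.18 and 25.61), and *M-CSF*, a growth factor of macrophages, was 2.38-fold lower (24.26 and 25.06). The pro-inflammatory *TNF-α* was 3.18-fold lower (24.6 and 25.82) and *IL-1β* was 2.36-fold lower (23.21 and 24.0). *TGF-β1*, which restrains T cells and promotes fibrosis, was 2.16-fold lower (22.66 and 23.32).

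The remaining cytokines were between -0.93 (*IL-12β*) and 0.85 (*IL-5*). The type 2 cytokine *IL-4* had a Ct of 37.24 in S100A8 + vehicle and 35.98 in S100A8 + LLC, a value of 0.81. *IFN-γ*, the type 1 cytokine of T and NK cells, had a value of 0.53 (30.34 and 29.36), and *IL-10*, an anti-inflammatory cytokine, -0.76 (30.89 and 31.2). Neither type 1 nor type 2 cytokines lay on one side of 0, since *IL-13* was lower whereas *IL-4* and *IL-5* were above 0, and *IFN-γ* was above 0 whereas *IL-12β*, which encodes a subunit of IL-12, was below. *IL-6* and *IL-18*, both pro-inflammatory, had values of 0.39 and 0.54.

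No chemokine was more than 2-fold higher. Of 12 chemokines, 6 were lower and 6 were not past 2-fold, with a range from -1.88 to 0.62 and a median of -0.94. Over the panel 12.2% were higher and 29.6% lower, with a median of -0.435, and so few genes are not set apart from these shares. The neutrophil attractants *CXCL-1*, *CXCL-2* and *CXCL-5* were 2.99-, 3.68- and 2.11-fold lower. In S100A8 + vehicle their Ct values were 26.02, 24.37 and 25.86, and in S100A8 + LLC they were 27.15, 25.8 and 26.49. *CXCL-10*, an interferon-induced attractant of T cells, was 2.85-fold lower (25.41 and 26.47), whereas *CXCL-9*, which acts on the same receptor, had a value of -0.24. *CCL-3* was 2.45-fold lower (24.29 and 25.13), and *CXCL-12*, a stromal chemokine, was 2.07-fold lower (23.57 and 24.17). Its receptor *CXCR4* had a value of 0.16. *CCL-2*, *CCL-4*, *CCL-5*, *CCL-13* and *CCL-11* had values of -0.02, -0.73, -0.83, -0.65 and 0.62. Without a reference, *CXCL-1*, *CXCL-2* and *CXCL-10* remained more than 2-fold lower, and *CXCL-5*, *CCL-3* and *CXCL-12* did not.

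S100A8 and S100A9 form calprotectin. The Ct of *S100A9* was 19.53 in S100A8 + vehicle and 21.07 in S100A8 + LLC, against 19.15 in HBSS + vehicle and 19.19 in HBSS + LLC. S100A8 + LLC was the latest of the 4 groups, and *S100A9* was 3.97-fold lower with LLC in S100A8-treated lungs. *S100A8* had a Ct of 20.18 in S100A8 + vehicle and 20.12 in S100A8 + LLC, a value of -0.39, which differed from that of *S100A9* by 1.60. This gap is close to the 1.51 between the *PTGS2* and *COX-2* assays described below. *S100A4*, a related gene linked to cell motility, was at 0.79. RAGE, a receptor for S100 proteins that is abundant on type I alveolar cells, was measured by 2 assays under the names *RAGE* and *AGER*. These were 2.17-fold lower (17.4 and 18.07) and 3.29-fold lower (16.63 and 17.9), a gap of 0.60 between assays named for the same gene. *SAA3*, an acute-phase protein, was 2.07-fold lower (25.61 and 26.21).

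Markers of cell types in the lung were read as lists. The 4 myeloid markers were between -1.99 and -0.39, in a panel with 60 of 98 genes below 0, and 2 of them (*S100A9* and *MMP-9*) were past 2-fold. Without a reference *S100A8* was at 0.06. *NOX2*, the phagocyte oxidase subunit, had a value of -0.92. Of the 3 markers of type I alveolar epithelium, *RAGE* and *AGER* were lower, whereas *CAV1* was at 0.95. Endothelial markers were at -1.47 for *CDH13*, -0.81 for *ICAM-1* and 0.23 for *VCAM-1*. Of the lymphocyte markers, *IRF-4* was 2.10-fold lower (23.44 and 24.06), *IL-2* was at least 2.99-fold higher and *LCK* was at -0.23. *MKI67*, a marker of proliferating cells, was at 0.18 (25.15 and 24.52). The part of cell composition in the differences reported here was not tested.

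Matrix and epithelial genes showed both directions. *MMP-10*, a stromelysin, was at least 6.15-fold higher, from the 38-cycle cut off to 34.93. *MMP-9*, a gelatinase of neutrophils and macrophages, was 3.10-fold lower (22.76 and 23.94). *TIMP2*, which inhibits such proteases, was 2.91-fold lower (18.36 and 19.45). The other proteases were not past 2-fold, with values of 0.00 for *MMP-2*, 0.54 for *MMP-3* and -0.55 for *MMP-13*. All 4 collagens and keratins were above 0, with a median of 1.105. *KRT14*, a keratin of basal epithelial cells, was 6.06-fold higher, and its Ct moved from 30.84 to 27.79. *COL11A1* was 2.41-fold higher (36.37 and 34.65), and *KRT5*, the partner of *KRT14*, and *COL10A1* were at 0.88 and 0.94. With Ct values capped at 35, *MMP-10* became -0.38 and *COL11A1* became -0.10. The cap removed the part of each difference that lay above 35 cycles, so that these signs do not show a direction.

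Of 6 adhesion molecules, 3 were lower and none was higher, with a median of -1.11, in a panel with 29.6% lower and 12.2% higher. A count over so few genes is not set apart from these shares. E-cadherin, *CDH1*, which joins epithelial cells, was 2.66-fold lower (18.79 and 19.75). *CDH13* was 2.77-fold lower (22.49 and 23.51), and *MUC1*, an epithelial mucin, was 2.73-fold lower (18.62 and 19.62). Without a reference, only *CDH13* of these remained past the threshold, and *CDH1* became -0.96. *ICAM-1* and *VCAM-1*, which bind leukocytes, and *CADM1* were not past 2-fold.

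Among 15 signalling genes, none was higher and 4 were lower, near the 29.6% of the panel, although *SIRT1* became 1.07 with the first housekeeping assay alone. *STAT3*, a transcription factor downstream of interleukin-6, and *SOCS3*, its feedback inhibitor, were each 2.69-fold lower. *ANXA5* and *IRF-4* were 2.13- and 2.10-fold lower, and the remaining 11 were not past 2-fold. None of these 4 remained past 2-fold without a reference, and with the first housekeeping assay alone *ANXA5* and *IRF-4* became -0.99 and -0.97. The other genes no longer past 2-fold with that assay were *CXCL-5*, *CXCL-12* and *SAA3*. *KIT*, the receptor of stem cell factor, was 2.77-fold lower (20.48 and 21.5) and was the only one of 7 growth factors and receptors past the threshold. *EGFR*, *IGF-1*, *HGF* and *FGF-2* were between 0.13 and 0.39, whereas *VEGFα* was at -0.66 and *SKY*, a receptor tyrosine kinase, at -0.78.

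*PTGS2*, the inducible cyclooxygenase that makes prostaglandins, was 2.68-fold higher (25.09 and 23.22). However, *COX-2*, another name of the same gene, had a value of -0.09 (30.23 and 29.87). Ct values of these assays were over 5 cycles apart in both groups, and their log2 differences differed by 1.51. *ALOX12*, a lipoxygenase, was at -0.69.

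Ct values of the higher and lower genes in S100A8 + vehicle are given next. This Ct is itself a term of the log2 difference, so that a late value there favours a positive difference by construction. Of the 12 higher genes, 10 had a Ct above 30 in S100A8 + vehicle, and for 6 of these the Ct was above 30 in S100A8 + LLC also. The exceptions were *GPX1* and *PTGS2*. Among the 29 lower genes, 28 had a Ct of at most 30 in S100A8 + vehicle, and the exception was *IL-13*. When the panel was split instead by the mean Ct of both groups, a split chosen after seeing the data, the 18 genes above 30 cycles held 7 of the higher genes and *IL-13*, with a median log2 difference of 0.575. The other 80 genes held 5 of the higher genes (*TXN*, *SOD1*, *KRT14*, *GPX1* and *PTGS2*) and 28 of the lower genes, with a median of -0.65. A gene near the 38-cycle cut off cannot become much later, which limits how far its value can lie below 0. *MMP-10*, *IL-2* and *HIF-3α* were at 38 cycles in S100A8 + vehicle, and no gene was in S100A8 + LLC. When only genes with a Ct of at most 30 in both groups were counted, 2 higher genes were left of the 12, and 28 lower genes of the 29. This limit also removed *TXN*, *SOD1*, *IL-17β* and *KRT14*, which were below 30 cycles with LLC and above 30 only in S100A8 + vehicle, so that the count of 2 does not measure how reliable the higher genes are.

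**Figure D2:**
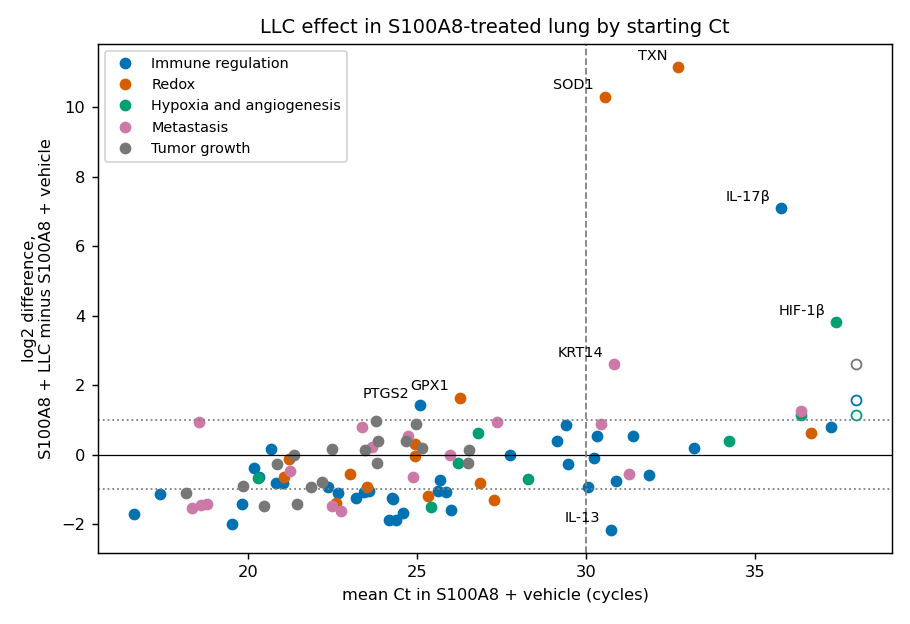
Each point is 1 of the 98 panel genes, placed by its averaged Ct in S100A8 + vehicle (cycles) and its log2 difference with LLC, with open circles for lower bounds, dotted lines at 2-fold and a dashed line at 30 cycles. Of the 12 genes above the upper dotted line, 10 lie to the right of 30 cycles, and 28 of the 29 below the lower line lie to the left.

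The LLC effect was then set beside that in lungs given HBSS (HBSS + LLC minus HBSS + vehicle), a comparison that shares no group with the one above. Without S100A8, 26.5% of the panel was higher with LLC and 21.4% lower, past 2-fold. Those counts depended strongly on the reference, with 61 genes higher and 4 lower with the first housekeeping assay alone, and 14 higher and 62 lower with the second alone. Using the first assay alone moved every value without S100A8 up by 1.60, and using the second moved it down by 1.60, against 0.10 for the values with S100A8. No difference between both LLC effects could be tested, and values are those with both assays unless stated.

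*TXN*, *SOD1*, *IL-17β*, *HIF-1α* and *HIF-3α* were more than 2-fold higher with LLC in both settings, 41.7% of the higher genes with S100A8 and 19.2% of those without. These 5 shared genes became 10 with the first housekeeping assay alone and 4 with the second. *HIF-3α* was not counted with the second, at 0.79 or more without S100A8, but this lower bound leaves unsettled whether it was past 2-fold. *TXN* was at 11.16 with S100A8 and 16.15 without, and *SOD1* was at 10.31 with S100A8 and at least 15.85 without. For *IL-17β* the order was the opposite, with 7.10 against 2.88. With either assay alone the order of the sizes was kept for these 3 genes, between 14.55 and 17.75 without S100A8 for *TXN*, at least 14.25 to 17.45 for *SOD1*, and 1.28 to 4.48 for *IL-17β*. Both LLC groups were within 1 cycle for *TXN* (21.11 and 20.92), whereas S100A8 + vehicle was earlier than HBSS + vehicle (32.72 and 37.41).

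Several genes that were much higher with LLC in HBSS-treated lungs were not past 2-fold in S100A8-treated lungs. *ICAM-1* was at 12.90 without S100A8 and -0.81 with it, *PRDX1* was at 8.14 and 0.30, *IL-10* was at 7.09 and -0.76, and *ARG1* was at 4.98 and -0.83. With the second housekeeping assay alone, these genes remained past 2-fold without S100A8, at 11.30, 6.54, 5.49 and 3.38. In each of these, HBSS + vehicle was the group that stood apart. The Ct of *ICAM-1* was 32.47 in HBSS + vehicle but 21.03 in S100A8 + vehicle, 21.39 in S100A8 + LLC and 19.23 in HBSS + LLC. *IL-4* was at least 6.97 without S100A8 and 0.81 with it, and there HBSS + LLC stood apart, with a Ct of 30.69 against 35.98 or later in the other groups. *IL-18* and *IFN-γ* were at 5.02 and 4.99 without S100A8 and at 0.54 and 0.53 with it. HBSS + LLC was the earliest group for both, at 28.2 and 25.91, against 30.4 and 29.36 in S100A8 + LLC.

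Of the 29 genes lower in S100A8-treated lungs, 7 were also lower in HBSS-treated lungs (24.1% of the former, 33.3% of the latter), 18 were not past 2-fold there and 4 were higher. The 7 shared genes became 1 with the first housekeeping assay alone and 26 with the second, so that the overlap of lower genes is not settled by these data. *S100A9* was at -1.99 with S100A8 and -0.38 without, but the value without S100A8 was 1.22 with the first assay alone and -1.98 with the second. For *TNF-α* the values were -1.67 and -1.46, and that without S100A8 became 0.14 and -3.06. Whether these genes differed between both settings thus depended on the reference. *IL-13* was lower in both, at -2.16 with S100A8 and -5.88 without, and at -4.28 and -7.48 without S100A8 with the first and second assay alone.

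Across the 98 genes Pearson's r between both LLC effects was 0.527 and Spearman's rho 0.133. Without *SOD1* and *TXN* (96 genes) these were 0.0533 and 0.0775, so that the linear relation rests on those 2 genes. Genes share the housekeeping reference of each comparison and are not replicates, and these coefficients are a description.

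**Figure D3:**
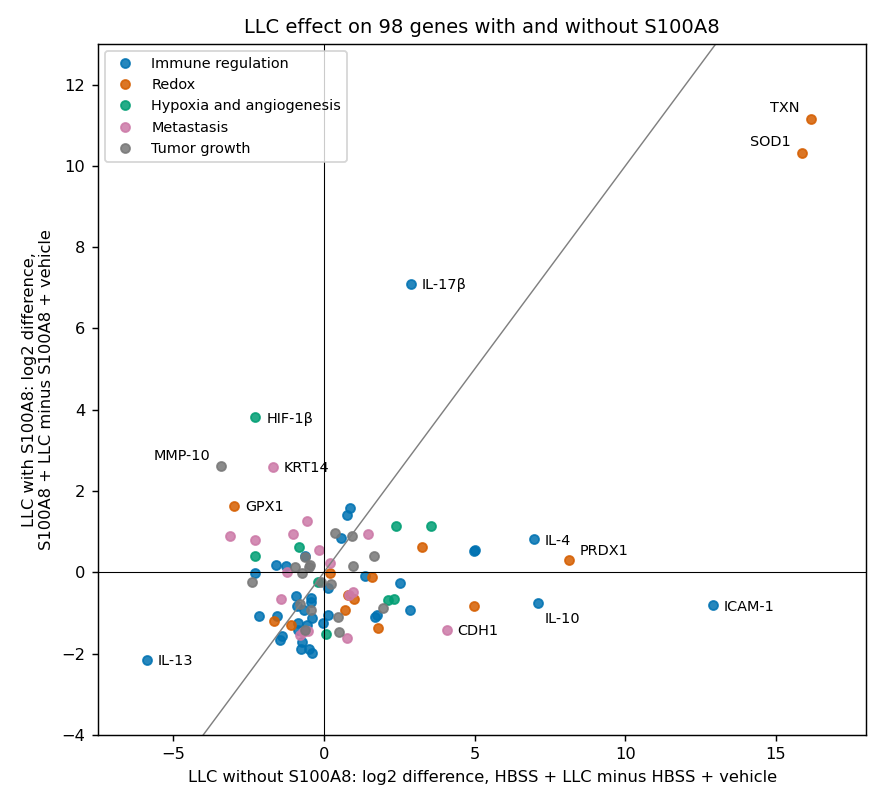
Log2 difference with LLC in S100A8-treated lungs (vertical axis) against that in HBSS-treated lungs (horizontal axis) for 98 genes coloured by panel group, with a line of equality. *TXN* and *SOD1* are far above 0 on both axes, whereas *ICAM-1*, *PRDX1*, *IL-10* and *IL-4* lie far to the right near 0 on the vertical axis.

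Opposite directions past 2-fold were found for 8 genes. *MMP-10*, *KRT14*, *HIF-1β* and *GPX1* were higher with LLC in S100A8-treated lungs and lower in HBSS-treated lungs, and *CDH1*, *TGF-β1*, *CXCL-12* and *GSTM* were the reverse. The Ct of *GPX1* was 26.28 in S100A8 + vehicle and 24.19 in S100A8 + LLC, against 23.87 in HBSS + vehicle and 26.51 in HBSS + LLC, so that the groups given neither or both treatments were early and those given one were late. For *CDH1* the corresponding values were 18.79, 19.75, 22.38 and 17.97, with HBSS + vehicle the latest. *KRT14* was near 30 cycles in S100A8 + vehicle (30.84) and both HBSS groups (29.41 and 30.75) and earliest in S100A8 + LLC (27.79). Under each of the 5 references tried, only *MMP-10* and *GPX1* remained past 2-fold in opposite directions. *MMP-10* was above 33 cycles in all 4 groups, and with Ct values capped at 35 its value with S100A8 became -0.38. The cap cut its 38 cycles in S100A8 + vehicle to 35, beside 34.93 in S100A8 + LLC. That value therefore cannot decide its direction.

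**Figure D4:**
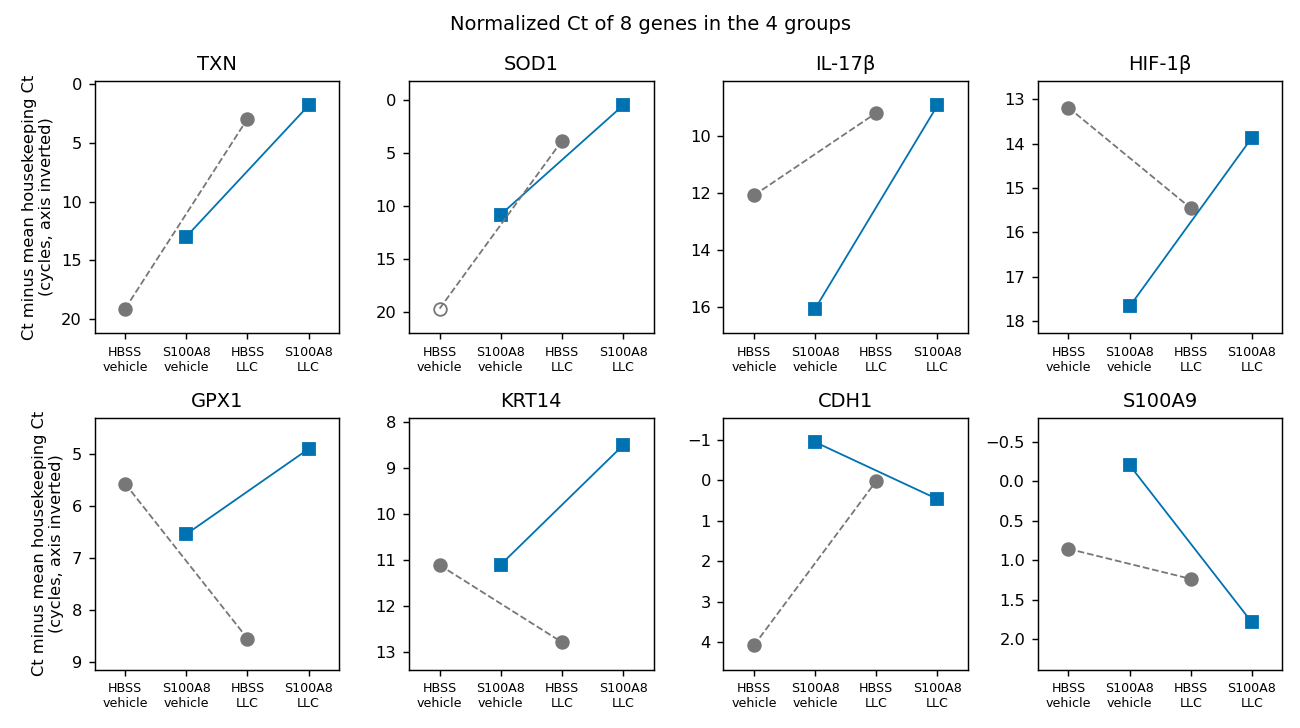
Normalized Ct (Ct minus the mean housekeeping Ct, in cycles, with the axis inverted so that higher expression is up) of 8 genes in the 4 groups, with squares and solid lines for S100A8-treated lungs, circles and dashed lines for HBSS-treated lungs and an open symbol for a Ct of 38. Lines join vehicle to LLC, and with this reference they run in the same direction for *TXN*, *SOD1*, *IL-17β* and *S100A9* and in opposite directions for *HIF-1β*, *GPX1*, *KRT14* and *CDH1*.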

How the data were processed

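Total RNA of mouse lungs was reverse-transcribed and measured by RT-qPCR with SYBR Green. The paper and the sample labels name different machines. The authors set a cut off of 38 cycles, averaged Ct values over 4 to 5 mice per group and deposited 1 unnormalized mean Ct per assay and group. The authors also deposited a table of ratios (fold changes against HBSS + vehicle). It was used only to name the numbered assays and groups, by matching its values to those the study prints by gene, and none of its values is reported. All 98 genes matched 1 assay, and the 2 assays left were taken as the housekeeping genes, β-actin and β2M, without knowing which is which. Columns carry no group names, and their groups rest on this match.

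Log2 differences were computed from Ct minus the mean Ct of both housekeeping assays, and a gene was counted when past 2-fold. Where S100A8 + vehicle was at 38 cycles the value is a lower bound. Template is assumed to double each cycle, and assay efficiencies were not used here. Genes named are those past 2-fold in either direction, those in opposite directions with and without S100A8, members of the cytokine and chemokine lists, *S100A8* and *S100A9*, assays of the same gene, genes at the cut off and genes nearest the threshold; others were named after their values were seen. The genes, lists and marker sets were chosen with earlier results of these data known. Mouse symbols and promoters were taken from RefSeq tables of GRCm38.p6, in which 94 panel names were given 1 of 92 symbols and 68 of these had a promoter. Calculations were tested on simulated data. Alternatives were other references, Ct limits of 30 and 35, a cap at 35, thresholds of 1.5-fold and 3-fold and, chosen after seeing the data, no reference. With 1 averaged value per group there is no precision to state. Python 3.11.15, numpy 2.4.6, pandas 2.3.3 and matplotlib 3.10.9 were used.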

Additional observations from a re-analysis of the deposited data

Results flagged for a closer look

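Among the 98 genes, 8 were more than 2-fold different with LLC in opposite directions in S100A8-treated and HBSS-treated lungs. Each group has 1 averaged value, so these differences were not tested. The LLC effect with S100A8 minus that without was 6.04 on the log2 scale for *MMP-10* (a lower bound, since S100A8 + vehicle was at 38 cycles), 6.08 for *HIF-1β*, 4.62 for *GPX1* and 4.28 for *KRT14*. It was -5.48 for *CDH1*, -3.18 for *GSTM*, -2.82 for *CXCL-12* and -2.79 for *TGF-β1*. *MMP-10* and *GPX1* kept opposite directions past 2-fold under all 5 references, and the other 6 did not. With Ct values capped at 35, *MMP-10* became -0.38 with S100A8. This cannot decide its direction, since the cap cut its 38 cycles in S100A8 + vehicle to 35. *HIF-1β* and *MMP-10* had Ct values above 30 in all 4 groups.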

How the results depend on the processing

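Counts of higher genes moved with the Ct range considered and with the threshold. In place of 12, they were 2 among genes with a Ct of at most 30 in both groups, 5 at a limit of 35, 7 with Ct values capped at 35, 22 at 1.5-fold, 7 at 3-fold and 22 with no reference. The count of 29 lower genes became 45 at 1.5-fold, 7 at 3-fold and 12 with no reference. The 8 genes in opposite directions became 14 with the first housekeeping assay alone, 5 at a Ct limit of 30, 22 at 1.5-fold and 4 at 3-fold. With Ct values capped at 35, *MMP-10*, *COL11A1* and *HIF-1α* became -0.38, -0.10 and -0.20. The cap cut their Ct in S100A8 + vehicle (38, 36.37 and 36.35) to 35. In S100A8 + LLC their Ct was 34.93, 34.65 and 34.75. These signs were thus set by the cap and the reference, and are not a change of direction. With the first housekeeping assay alone 5 called genes were no longer past 2-fold, with the second 0, against the panel median 2 and with no reference 17. *HIF-3α*, among the 2 with the panel median, is a lower bound there. The median of all genes ranged from -0.69 to 0.015. No replicate could be left out, and no paired analysis was possible because each group has 1 averaged value. Of the 12 higher genes, 6 had a Ct above 30 in both groups, which can reflect few molecules or the assay itself.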

Other observations

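Sorted by the panel's own groups, the 39 immune regulation genes had the lowest median with LLC in S100A8-treated lungs, at -0.83, with 3 higher and 17 lower. Over all 98 genes 12.2% were higher and 29.6% lower, with a median of -0.435. Without a reference the immune regulation median was -0.38, and both assays for RAGE count among its 17 lower genes. The 14 redox genes had a median of -0.34 with 3 higher and 3 lower, so that *TXN*, *SOD1* and *GPX1* were not typical of their group. The 19 tumor growth genes (1 higher, 3 lower) and the 17 metastasis genes (2 higher, 5 lower) had medians of -0.02 and 0.00.

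Among genes not past 2-fold, *BCL2*, an inhibitor of apoptosis, was at 0.88 (Ct 24.97 and 23.64), *SIRT1*, a deacetylase, at 0.97 (23.8 and 22.38) and *CAV1*, a protein of caveolae, at 0.95 (18.56 and 17.16). *CDKN1A*, a cell cycle inhibitor, was at -0.89 (19.87 and 20.31).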
